A study of Mus musculus with 6 samples.

Results

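The genes described here are 43 genes of DNA replication and S phase, taken from the kidney transcriptome of mice that lack Tsc1 in the principal cells of the collecting duct. They were picked by symbol from a list of licensing factors, helicase subunits, polymerases, clamp and clamp loader subunits, ligases and nucleases of Okazaki fragments, enzymes of deoxynucleotide supply, cyclins E, E2F factors and chromatin inheritance genes, and all 43 were present among the 15302 genes listed. Poly A RNA of whole kidneys was sequenced from 3 Tsc1-KO mice (libraries 4, 5 and 6) and 3 WT mice (libraries 1, 2 and 3), all 45 days old. The labels give the Tsc1-KO genotype as Tsc1f/f/Aqp2 Cre, floxed Tsc1 alleles cut by a Cre recombinase that is driven in principal cells by the Aqp2 promoter, and the WT genotype as C57BL/6. The WT mice are not described as littermates, so the Cre transgene and the strain background cannot be told apart from the loss of Tsc1.

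Tsc1 itself was at 7.69, 7.62 and 8.23 FPKM in Tsc1-KO libraries 4, 5 and 6, against 8.46, 8.91 and 7.49 FPKM in WT libraries 1, 2 and 3. FPKM, the unit of all levels here, is a level corrected for gene length and sequencing depth. The groups overlapped for Tsc1, which most kidney cells keep in this model, so its level in whole kidney is a weak check of the labels. Between 19568856 and 24647430 reads fell in listed genes per library. WT library 3 stood apart from the other WT libraries, with correlations of log2 FPKM over genes of 0.977 and 0.976 with WT libraries 1 and 2, which correlated at 0.992 with each other, and of 0.974 to 0.981 with the Tsc1-KO libraries. All 9 genes fixed as markers of principal cells, Aqp2 among them, were above 0 in every library.

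DNA is copied once per cell cycle from origins that are licensed in G1, when the origin recognition complex, Cdc6 and Cdt1 load the ring-shaped MCM helicase onto DNA. At the start of S phase Cdc45 and the GINS complex switch the helicase on, and the polymerases, held to the template by the PCNA clamp, copy both strands while ligases seal the lagging one. Many of these genes are transcribed only as cells leave quiescence, under the control of E2F factors released from the retinoblastoma protein, and the epithelium of the adult kidney divides rarely.

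None of the 39 replication genes that could be tested passed the test, although most of them were at slightly larger mean levels in Tsc1-KO than in WT kidneys. The test was limma on log2(FPKM + 0.1), and p was adjusted by Benjamini-Hochberg over the 13230 genes whose mean reached 0.5 FPKM. It could be applied to 39 of the 43 genes. Orc1, Cdc6, Ccne2 and E2f8 were under the limit. At an adjusted p under 0.05, 0 of 39 were higher and 0 lower in Tsc1-KO mice, where 1.87% of all genes tested were higher and 0.234% lower. At an unadjusted p under 0.05, 13 of 39 were higher and 0 lower, where 13.4% of all genes were higher and 5.72% lower. limma-voom on the recovered read counts also called 0 higher (1.63% of all genes) and 0 lower (0.333%) at the adjusted p, and 12 higher (10.4%) and 0 lower (8.93%) at the unadjusted p.

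A log2 fold change above 0, Tsc1-KO over WT, was found for 34 of 39 replication genes and for 59.8% of all genes. After median-of-ratios scaling, 32 of 39 replication genes and 48.4% of all genes were above 0, and the 2 that turned were Rfc4 and Dnmt1. The median log2 fold change was 0.21 over the 39 genes, with quartiles of 0.08 and 0.42, and 0.04 over all genes, with quartiles of -0.08 and 0.18. All 3 Tsc1-KO libraries lay above all 3 WT libraries for 14 of 39 replication genes and for 17.3% of all genes, and the reverse order was found for 0 of 39 and for 8.07% of all genes. These 14 were Mcm2 and Mcm5 of the helicase, Cdc45 and Gins4 of its activation, Pola1, Pold1 and Pole of the polymerases, Lig1, Rrm1, Rrm2, Ccne1, E2f1, Uhrf1 and Chaf1a. Of these, Pole and Ccne1 had WT means of 0.353 and 0.369 FPKM and passed the limit of 0.5 FPKM through their Tsc1-KO libraries. Both are also among the 13 genes higher at an unadjusted p under 0.05. Over all 43 genes listed the count was 16, since Cdc6 and E2f8 joined, with 16.9% of all listed genes in this order and 7.65% in the reverse order.

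**Figure D1:**
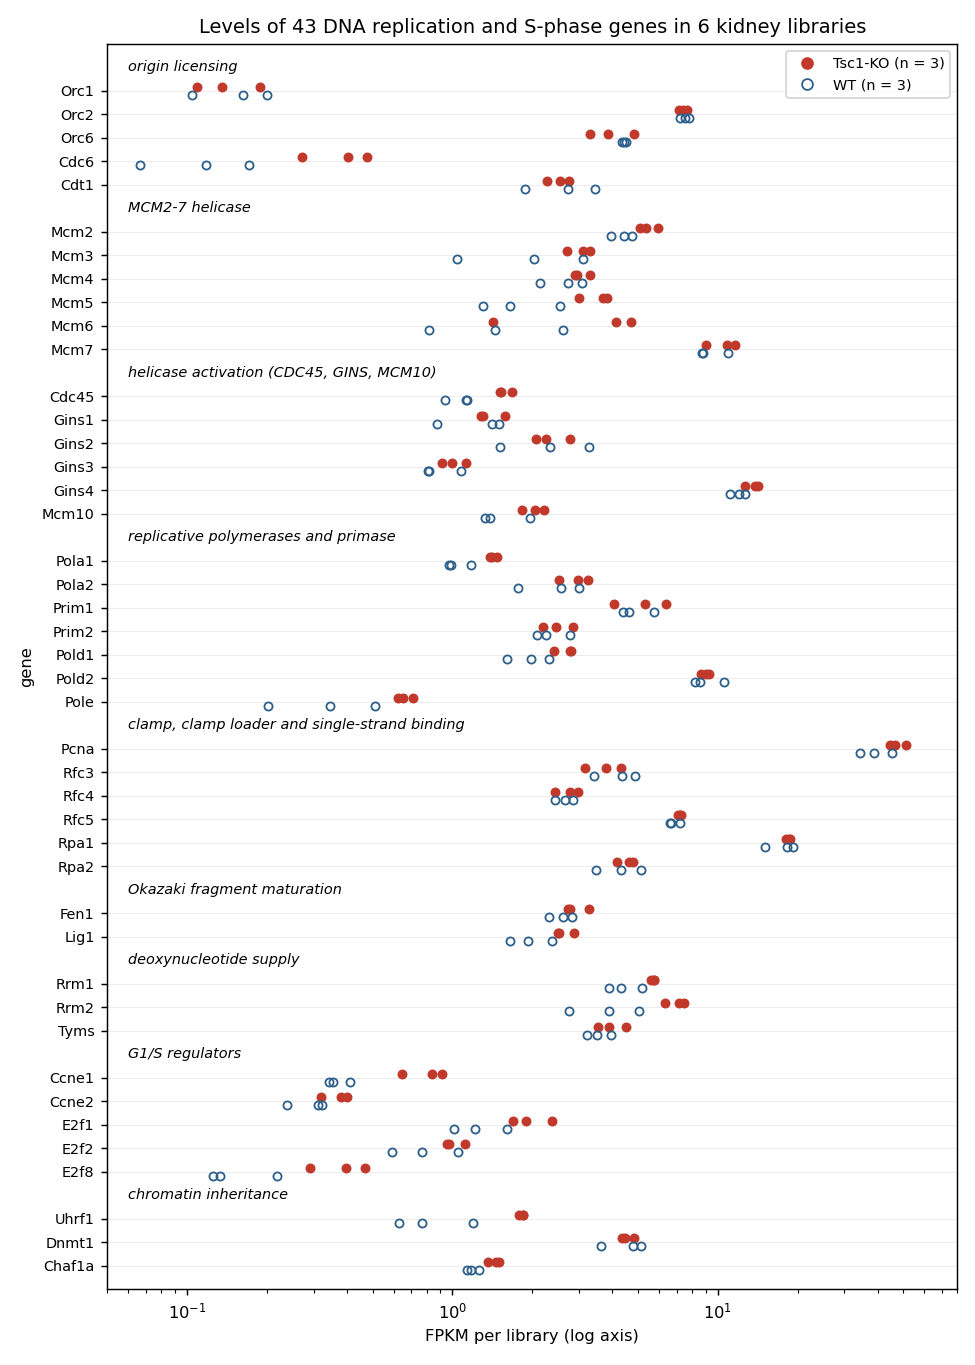
FPKM of the 43 replication genes in each library on a log axis, ordered by role, with filled red points for the 3 Tsc1-KO libraries and open blue points for the 3 WT libraries. Pcna stood highest, at 44.6 to 51.2 FPKM in Tsc1-KO and 34.2 to 45.2 FPKM in WT libraries, and the groups did not overlap for 16 of 43 genes, Uhrf1, Ccne1, Rrm2, Mcm5 and Cdc6 among them.

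WT library 3 was low and WT library 2 high for most of these genes. WT library 3 had the lowest level of the 3 WT libraries for 29 of 39 replication genes, where it was lowest for 45.5% of all genes, and the lowest of all 6 libraries for 27 of 39, where the share over all genes was 30.1%. WT library 2 had the highest WT level for 31 of 39, where it was highest for 41.4% of all genes. Sums of the cell markers given below also differed between WT libraries. Endothelium markers summed to 153, 224 and 105 FPKM and podocyte markers to 69.7, 90.6 and 58.8 FPKM in WT libraries 1, 2 and 3. Principal cell markers had another order, at 456, 495 and 576 FPKM, and a link to the replication genes was not tested. The FPKM of the 43 genes summed to 219.67, 196.78 and 208.7 in Tsc1-KO libraries 4, 5 and 6, against 172.29, 201.69 and 163.15 in WT libraries 1, 2 and 3. The groups thus overlapped through WT library 2, which lay above Tsc1-KO library 5. The sums averaged 208 ± 11.5 in Tsc1-KO and 179 ± 20.1 in WT mice (SD, n = 3 each). In whole kidney RNA, more cells in S phase and more replication RNA per cell cannot be told apart.

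Leaving out WT library 3 lowered the median log2 fold change to 0.16, against 0.03 over all genes, and 28 of 39 were then above 0, where 56% of all genes were. Rrm2 and Uhrf1 then passed the test (2 of 39), where 5.38% of all genes were called higher. Without WT library 2 the genes that passed were Mcm5, Rrm2 and Uhrf1 (3 of 39), where 1.34% of all genes were called higher. Tsc1-KO libraries lay above both remaining WT libraries for 15 of 39 genes without WT library 3 (27.9% of all genes), for 20 of 39 without WT library 2 (25.6%) and for 18 of 39 without WT library 1 (19.8%).

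**Figure D2:**
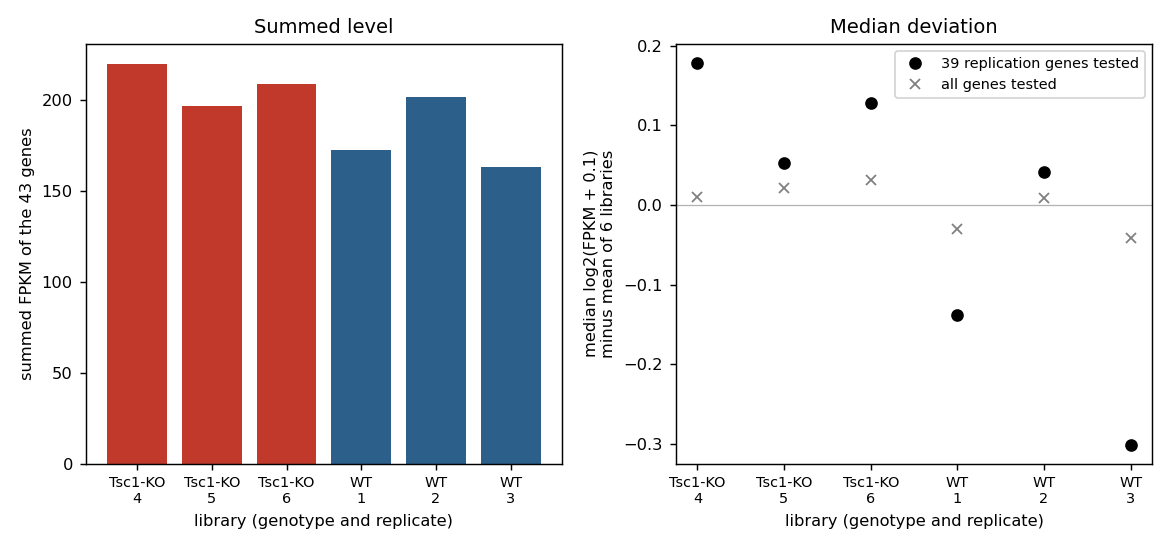
Left, summed FPKM of the 43 replication genes in each library; right, median deviation of log2(FPKM + 0.1) from the mean of the 6 libraries, for the 39 replication genes tested (dots) and for all genes tested (crosses). The median deviation of the replication genes was 0.18, 0.05 and 0.13 in Tsc1-KO libraries 4, 5 and 6 and -0.14, 0.04 and -0.30 in WT libraries 1, 2 and 3, while that of all genes stayed between -0.04 and 0.03.

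Promoters from RefSeq (GRCm38.p6, 250 bases before to 50 after each start) were found for 36 of the 43 genes. The words TTTCCCGC, TTTCGCGC, TTTGCCGC and TTTGGCGC, spellings of the E2F site, were searched on both strands, and at least 1 stood in a promoter of 15 of the 36 genes (41.7%) and of 2.6% of all 27025 genes with a promoter. These 27025 go beyond the 15302 genes listed in kidney, so they are not a matched background for the shares given here. CCAAT, the box bound by NF-Y, was found in 69.4% of the replication genes and 41.1% of all genes, and TTTGAA, a spelling of the cell cycle homology element of mitotic genes, in 22.2% and 20.2%. The 13 tested genes with an E2F word had a median log2 fold change of 0.40, and 5 of them had all Tsc1-KO above all WT libraries. The 20 tested genes with a promoter and no such word had a median of 0.22, and 7 of them had that order. Of all genes tested, 17.3% had it. Genes with a word ranged from -0.16 for Rfc3 to 1.04 for Uhrf1, and genes without one from -0.16 for Orc6 to 0.93 for Ccne1. Whether the word goes with the difference was not tested. A match is a description of the letters and not a bound site.

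The 200 bases before the start of 4 genes that are described below are printed with the E2F words in capitals, 5′ to 3′ on the strand of the gene. They show how the words lie, since in Mcm5 and in Mcm6, subunits of 1 helicase, a pair of words on opposite strands overlaps, and in Pola1 and Uhrf1 a word stands alone. All 4 are examples with a log2 fold change above 0, whereas Rfc3 and Cdt1, at -0.16 and -0.05, also hold a word. The windows are Mcm5 on the plus strand of chr8:75109309-75109508, Mcm6 on the minus strand of chr1:128359706-128359905, Pola1 on the minus strand of chrX:93632156-93632355 and the second start of Uhrf1 on the plus strand of chr17:56304113-56304312, all in GRCm38.p6. The Uhrf1 window is intronic in a longer transcript of the gene, and GENCODE M21 annotates no gene in the other windows. The first base of a word stood 153 and 149 bases before the start in Mcm5, 110, 106 and 47 bases before it in Mcm6, 138 bases before it in Pola1 and 185 bases before it in Uhrf1.
Mcm5: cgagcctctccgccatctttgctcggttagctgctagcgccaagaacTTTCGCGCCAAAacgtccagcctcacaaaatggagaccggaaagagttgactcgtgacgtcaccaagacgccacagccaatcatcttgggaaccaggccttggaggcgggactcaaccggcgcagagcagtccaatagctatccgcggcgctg
Mcm6: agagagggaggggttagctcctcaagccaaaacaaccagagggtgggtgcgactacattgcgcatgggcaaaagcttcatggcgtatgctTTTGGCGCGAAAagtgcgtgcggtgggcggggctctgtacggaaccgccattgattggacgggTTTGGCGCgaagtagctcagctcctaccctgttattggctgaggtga
Pola1: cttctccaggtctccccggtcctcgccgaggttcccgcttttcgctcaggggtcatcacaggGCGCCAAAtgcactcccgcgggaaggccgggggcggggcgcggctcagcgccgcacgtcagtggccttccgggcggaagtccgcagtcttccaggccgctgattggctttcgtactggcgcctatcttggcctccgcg
Uhrf1: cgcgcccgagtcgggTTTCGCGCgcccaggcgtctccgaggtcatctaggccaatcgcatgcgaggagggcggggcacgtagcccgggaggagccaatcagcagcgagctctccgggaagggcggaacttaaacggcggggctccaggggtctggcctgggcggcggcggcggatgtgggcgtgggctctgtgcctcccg

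The 3 licensing factors that could be tested had log2 fold changes of -0.16 to -0.02, with overlap between the groups. Orc2, a core subunit of the origin recognition complex, was at 7.68, 7.12 and 7.42 FPKM in Tsc1-KO libraries 4, 5 and 6, against 7.51, 7.78 and 7.22 FPKM in WT libraries 1, 2 and 3. Its log2 fold change was -0.02 (SE 0.0725, 95% interval -0.19 to 0.15). Orc6, the smallest subunit, was at 4.83, 3.86 and 3.31 FPKM in Tsc1-KO and 4.36, 4.5 and 4.42 FPKM in WT libraries. The 3 WT values of Orc6 lay inside the wider range of the Tsc1-KO values (log2 fold change -0.16, SE 0.141, adjusted p = 0.598 from limma). Cdt1, which brings the MCM ring to the origin, averaged 2.52 ± 0.246 FPKM in Tsc1-KO and 2.68 ± 0.779 FPKM in WT mice (SD, n = 3 each). Its log2 fold change of -0.05 had a wide 95% interval, from -0.56 to 0.46.

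Cdc6, the ATPase that loads the ring together with Cdt1, was the 1 licensing factor without overlap between groups. It was at 0.477, 0.272 and 0.406 FPKM in Tsc1-KO libraries, against 0.0666, 0.171 and 0.118 FPKM in WT libraries, without overlap. These values rest on 48, 25 and 47 reads in Tsc1-KO libraries and 7, 18 and 12 reads in WT libraries, and the gene was under the limit of 0.5 FPKM. With no limit its log2 fold change was 1.15 (SE 0.258, adjusted p = 0.0818 from limma). Orc1, the ATPase of the origin recognition complex, was nearly silent at 0.144 ± 0.0406 FPKM in Tsc1-KO and 0.155 ± 0.0483 FPKM in WT mice (SD, n = 3 each), or 7 to 14 reads per library. Cdc6 and the other genes outside the naming rule were singled out after their values had been seen.

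All 6 subunits of the MCM helicase had a log2 fold change above 0, where 59.8% of all genes did. Their median of 0.48 was the largest of the roles with 6 or more genes tested. The 3 tested G1/S regulators had a larger median, 0.61. The 6 summed to 29.0 ± 4.29 FPKM in Tsc1-KO and 22.0 ± 3.34 FPKM in WT mice (SD, n = 3 each). Mcm5 was at 3.81, 3.0 and 3.69 FPKM in Tsc1-KO libraries, against 1.65, 2.54 and 1.3 FPKM in WT libraries. Its groups did not overlap (log2 fold change 0.94, SE 0.238, 95% interval 0.38 to 1.51), and its adjusted p of 0.102 (limma) missed the threshold. The adjusted p ranged from 0.0406 to 0.297 over the alternatives, with the smallest when WT library 2, the highest WT library for Mcm5, was left out. Mcm7, the most abundant subunit, was at 11.6, 9.04 and 10.9 FPKM in Tsc1-KO and 8.81, 10.9 and 8.75 FPKM in WT libraries, and its groups overlapped (log2 fold change 0.14, SE 0.128, adjusted p = 0.594).

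The subunits of the ring, which work in equal numbers, spanned log2 fold changes from 0.14 for Mcm7 to 1.0 for Mcm6. Mcm2 had no overlap between groups, at 5.94, 5.11 and 5.38 FPKM in Tsc1-KO and 4.43, 4.77 and 3.95 FPKM in WT libraries (log2 fold change 0.31, adjusted p = 0.177 from limma). Mcm3 was at 3.30, 2.69 and 3.09 FPKM in Tsc1-KO and 2.03, 3.10 and 1.04 FPKM in WT libraries, with WT library 2 among the Tsc1-KO values. Mcm4 averaged 3.05 ± 0.220 FPKM in Tsc1-KO and 2.65 ± 0.478 FPKM in WT mice (SD, n = 3 each), a log2 fold change of 0.21 with overlap. Mcm6 was the most uneven replication gene, at 4.70, 1.42 and 4.14 FPKM in Tsc1-KO libraries and 0.815, 1.45 and 2.60 FPKM in WT libraries. Its fitted log2 fold change of 1.0 had an interval from -0.27 to 2.27, and its Tsc1-KO library 5 lay below WT libraries 2 and 3. The spread of Mcm6 within groups was 75 times the variance that read counting gives, against 15.8 times for Mcm3, the next gene.

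Among the genes that switch the helicase on, Cdc45 had the smallest p. This helicase cofactor was at 1.67, 1.51 and 1.52 FPKM in Tsc1-KO libraries, against 1.12, 1.14 and 0.939 FPKM in WT libraries, from 67 to 85 and from 46 to 58 reads. All Tsc1-KO values lay above all WT values (log2 fold change 0.52, SE 0.141, 95% interval 0.18 to 0.85, adjusted p = 0.118 from limma). Gins4, the most abundant of the 4 GINS subunits, was at 13.8, 12.7 and 14.2 FPKM in Tsc1-KO and 12, 12.6 and 11.1 FPKM in WT libraries. Its groups were separated by a narrow gap between Tsc1-KO library 5 and WT library 2 (log2 fold change 0.18, SE 0.0778, adjusted p = 0.263). The other GINS subunits, Gins1, Gins2 and Gins3, had log2 fold changes of 0.15, 0.05 and 0.16 with overlap. Gins1 averaged 1.39 ± 0.164 FPKM in Tsc1-KO and 1.26 ± 0.338 FPKM in WT mice, Gins2 2.36 ± 0.367 FPKM and 2.37 ± 0.873 FPKM in the same groups, and Gins3 1.01 ± 0.107 FPKM and 0.898 ± 0.154 FPKM (SD, n = 3 each). Mcm10, which stabilises the active helicase, averaged 2.03 ± 0.192 FPKM in Tsc1-KO and 1.56 ± 0.353 FPKM in WT mice (SD, n = 3 each), and WT library 1, at 1.96 FPKM, lay among the Tsc1-KO values.

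The catalytic subunits of the 3 replicative polymerases had no overlap between groups. Pola1, the catalytic subunit of polymerase alpha, which starts each new strand, was at 1.39, 1.40 and 1.47 FPKM in Tsc1-KO libraries, against 0.987, 1.17 and 0.969 FPKM in WT libraries. Its log2 fold change was 0.42 (SE 0.140, 95% interval 0.08 to 0.75, adjusted p = 0.178 from limma). Pold1, the catalytic subunit of the lagging-strand polymerase delta, was at 2.77, 2.79 and 2.42 FPKM in Tsc1-KO and 1.97, 2.30 and 1.61 FPKM in WT libraries (log2 fold change 0.43, adjusted p = 0.196). Pole, the catalytic subunit of the leading-strand polymerase epsilon, was at 0.708, 0.652 and 0.626 FPKM in Tsc1-KO and 0.345, 0.512 and 0.201 FPKM in WT libraries (log2 fold change 0.81, adjusted p = 0.200). The 3 catalytic subunits were thus separated by group, and Pole passed the limit on low values through its Tsc1-KO libraries.

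Pold2, the accessory subunit of polymerase delta, was the most abundant of the 7 polymerase and primase genes among the 43, at 8.65, 9.27 and 9.04 FPKM in Tsc1-KO and 8.56, 10.6 and 8.22 FPKM in WT libraries. Its WT library 2 was the highest of the 6 (log2 fold change -0.01, SE 0.107, 95% interval -0.27 to 0.24). Pola2, the regulatory subunit of polymerase alpha, and the primase subunits Prim1 and Prim2, which lay the RNA primer, had log2 fold changes of 0.27, 0.08 and 0.08, all with overlap. Pola2 averaged 2.91 ± 0.364 FPKM in Tsc1-KO and 2.45 ± 0.625 FPKM in WT mice (SD, n = 3 each). Prim1 averaged 5.26 ± 1.17 FPKM in Tsc1-KO and 4.93 ± 0.718 FPKM in WT mice, and its Tsc1-KO library 5, at 4.07 FPKM, was the lowest of the 6. Prim2 averaged 2.50 ± 0.322 FPKM in Tsc1-KO and 2.37 ± 0.353 FPKM in WT mice.

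Pcna, the sliding clamp, was the most abundant replication gene. It was at 51.2, 44.6 and 46.7 FPKM in Tsc1-KO libraries, against 34.2, 45.2 and 38.7 FPKM in WT libraries. The groups overlapped by 1 pair, Tsc1-KO library 5 below WT library 2 (log2 fold change 0.28, SE 0.109, 95% interval 0.02 to 0.54, adjusted p = 0.235 from limma). The loader subunits Rfc3, Rfc4 and Rfc5, which open the clamp, had log2 fold changes of -0.16, 0.04 and 0.07. Rfc3 averaged 3.76 ± 0.570 FPKM in Tsc1-KO and 4.21 ± 0.733 FPKM in WT mice, Rfc4 2.72 ± 0.269 FPKM and 2.65 ± 0.210 FPKM in the same groups, and Rfc5 7.17 ± 0.108 FPKM and 6.82 ± 0.341 FPKM (SD, n = 3 each). The single-strand binding subunits Rpa1 and Rpa2 had log2 fold changes of 0.08 and 0.09. Rpa1, the next most abundant replication gene after Pcna, averaged 18.4 ± 0.371 FPKM in Tsc1-KO and 17.5 ± 2.12 FPKM in WT mice, and Rpa2 averaged 4.54 ± 0.331 FPKM and 4.32 ± 0.834 FPKM in the same groups. All 5 overlapped between groups, with the tightest interval, -0.10 to 0.24, for Rfc5. In all, 0 of the 6 genes of the clamp, its loader and single-strand binding were separated by group.

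Lig1, the ligase that seals Okazaki fragments, was at 2.50, 2.51 and 2.87 FPKM in Tsc1-KO libraries, against 1.93, 2.38 and 1.64 FPKM in WT libraries. No Tsc1-KO library fell into the WT range (log2 fold change 0.40, SE 0.156, 95% interval 0.03 to 0.77, adjusted p = 0.231 from limma). Fen1, the flap nuclease that trims the fragments before the ligase acts, was at 2.73, 3.27 and 2.77 FPKM in Tsc1-KO and 2.61, 2.82 and 2.31 FPKM in WT libraries. WT library 2 lay among the Tsc1-KO values of Fen1 (log2 fold change 0.17, adjusted p = 0.505).

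Ribonucleotide reductase makes the deoxynucleotides for replication from a large and a small subunit. Rrm2, the small subunit whose level follows S phase, was at 7.16, 6.30 and 7.46 FPKM in Tsc1-KO libraries, against 3.88, 5.05 and 2.76 FPKM in WT libraries. The gap between the groups, from WT library 2 to Tsc1-KO library 5, was wider than that of Rrm1 (log2 fold change 0.86, SE 0.207, 95% interval 0.37 to 1.35, adjusted p = 0.0922 from limma). The adjusted p of Rrm2 ranged from 0.0422 to 0.282 over the alternatives and was under 0.05 without WT library 2 and without WT library 3. Rrm1, the large subunit, was even in Tsc1-KO libraries at 5.61, 5.74 and 5.72 FPKM, against 4.32, 5.17 and 3.88 FPKM in WT libraries (log2 fold change 0.36, adjusted p = 0.169). Tyms, the thymidylate synthase, averaged 3.98 ± 0.495 FPKM in Tsc1-KO and 3.56 ± 0.386 FPKM in WT mice (SD, n = 3 each) and overlapped.

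Among the regulators of S-phase entry, group means ran from 0.159 FPKM for E2f8 in WT to 1.98 FPKM for E2f1 in Tsc1-KO mice. Ccne1, cyclin E1, the partner of Cdk2 at the start of S phase, was at 0.837, 0.914 and 0.643 FPKM in Tsc1-KO libraries, against 0.343, 0.410 and 0.355 FPKM in WT libraries. These levels rest on 35, 35 and 31 reads in Tsc1-KO libraries and 15, 18 and 15 reads in WT libraries, and the gene passed the limit on low values through its Tsc1-KO libraries. Its log2 fold change was 0.93 (SE 0.206, 95% interval 0.44 to 1.41, adjusted p = 0.0773 from limma), and without the variance trend of the fit it was the 1 replication gene that passed (adjusted p = 0.0405), where 1.47% of all genes were called higher. Ccne2, cyclin E2, averaged 0.367 ± 0.0431 FPKM in Tsc1-KO and 0.290 ± 0.0461 FPKM in WT mice (SD, n = 3 each), with overlap and under the limit.

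E2f1, an activator of replication genes, was at 2.37, 1.90 and 1.69 FPKM in Tsc1-KO libraries, against 1.21, 1.61 and 1.02 FPKM in WT libraries. Its groups did not overlap (log2 fold change 0.61, SE 0.205, 95% interval 0.12 to 1.09, adjusted p = 0.180 from limma). E2f2, another activator, averaged 1.01 ± 0.0863 FPKM in Tsc1-KO and 0.801 ± 0.229 FPKM in WT mice (SD, n = 3 each), with WT library 1, at 1.05 FPKM, among the Tsc1-KO values (log2 fold change 0.33). E2f8, a repressor of the family that is itself switched on in S phase, was at 0.469, 0.291 and 0.396 FPKM in Tsc1-KO and 0.133, 0.217 and 0.125 FPKM in WT libraries, without overlap. With no limit on low values the log2 fold change of E2f8 was 0.91, at an adjusted p of 0.102 (limma), with 21 to 37 reads in Tsc1-KO and 10 to 18 reads in WT libraries.

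Of the genes that copy chromatin marks behind the fork, Uhrf1 had the largest log2 fold change of the 39 and the smallest p. Uhrf1, which reads hemimethylated DNA and recruits Dnmt1, was at 1.85, 1.85 and 1.78 FPKM in Tsc1-KO libraries, against 0.769, 1.20 and 0.627 FPKM in WT libraries. The Tsc1-KO values were close together and all above the WT values (log2 fold change 1.04, SE 0.225, 95% interval 0.51 to 1.57, adjusted p = 0.0744 from limma). Over the alternatives its adjusted p ranged from 0.0327 to 0.242, with values under 0.05 without WT library 2 and without WT library 3. Dnmt1, the maintenance DNA methyltransferase, was at 4.45, 4.81 and 4.36 FPKM in Tsc1-KO and 4.80, 5.12 and 3.63 FPKM in WT libraries. All 3 Tsc1-KO values of Dnmt1 lay inside the WT range, and its log2 fold change of 0.02 (95% interval -0.31 to 0.35) turned to -0.02 with median-of-ratios scaling. Chaf1a, the large subunit of the histone chaperone CAF-1, averaged 1.44 ± 0.0717 FPKM in Tsc1-KO and 1.19 ± 0.0650 FPKM in WT mice (SD, n = 3 each), without overlap (log2 fold change 0.26, adjusted p = 0.336).

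Chaf1a shares 4648 exon bases with Ubxn6 on the opposite strand in GENCODE M21, Gins2 shares 2758 with Gse1, Fen1 1909 with Gm10143, Orc2 1150 with Nif3l1 and Ccne2 609 with Ints8. Since it is not stated whether reads were counted by strand, reads of these pairs cannot be told apart. Other overlaps with protein-coding genes on the opposite strand, of Cdc45, Fen1, Lig1, Mcm7, Orc6, Rfc4 and Rfc5, were of 64 to 499 bases.

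**Figure D3:**
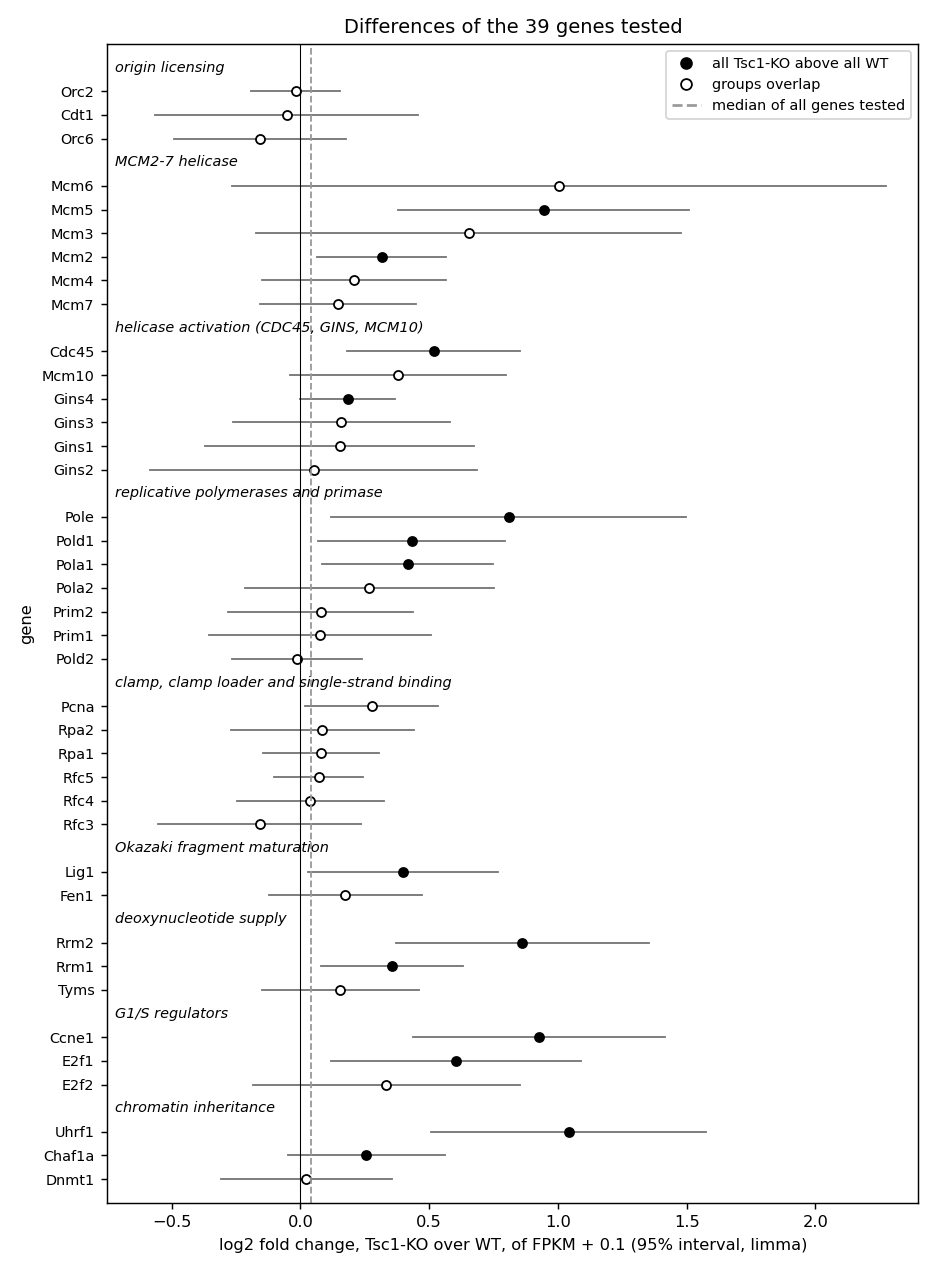
Log2 fold change of FPKM + 0.1, Tsc1-KO over WT, of the 39 replication genes tested, with the 95% interval from limma, ordered by role. Filled points mark the 14 genes whose Tsc1-KO libraries all lay above all WT libraries, open points mark overlap, and the dashed line is the median of all genes tested, 0.04, while Uhrf1 at 1.04 was the largest and Rfc3 at -0.16 the smallest.

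By role, the median log2 fold change was -0.05 for licensing (3 genes tested), 0.48 for the MCM helicase (6), 0.17 for helicase activation (6), 0.27 for polymerases and primase (7), 0.08 for the clamp, its loader and single-strand binding (6), 0.29 for Okazaki fragment maturation (2), 0.36 for deoxynucleotide supply (3), 0.61 for the G1/S regulators (3) and 0.26 for chromatin inheritance (3). These medians rest on few genes, and differences between roles were not tested.

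Genes around the replication machinery were set beside the 43. Over all genes tested, 1.87% were called higher and 0.234% lower by limma. At an unadjusted p under 0.05 the shares were 13.4% and 5.72%, and 59.8% of all genes were above 0. Of 27 other replication factors tested, out of 35, 0 were called in either direction by limma or limma-voom, 4 were higher and 2 lower at an unadjusted p under 0.05, and 15 were above 0, with a median log2 fold change of 0.05. Top1, the topoisomerase that relieves the twist ahead of the fork, had the smallest limma p of these, at 36.1 ± 1.66 FPKM in Tsc1-KO and 28.9 ± 2.58 FPKM in WT mice (SD, n = 3 each), with a log2 fold change of 0.32 and an adjusted p of 0.0923. The 12 genes of nucleotide supply and histone handling had 0 called, 3 higher and 0 lower unadjusted, and a median of 0.15. Asf1b, among the 12, passed the limit on low values through its Tsc1-KO libraries (WT mean 0.488 FPKM). Chaf1b, the middle subunit of CAF-1, was at 1.91, 1.28 and 1.84 FPKM in Tsc1-KO libraries and 0.585, 0.908 and 0.653 FPKM in WT libraries, without overlap (adjusted p = 0.0604 from limma), beside its partner Chaf1a at a log2 fold change of 0.26.

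The other E2F, RB and CDK2 genes, 15 tested out of 16, had 0 called, 2 higher and 1 lower unadjusted, and a median log2 fold change of 0.05. Lin9, a subunit of the DREAM and MuvB complexes that control E2F targets, had the smallest p (log2 fold change 0.41, adjusted p = 0.140 from limma). The 9 tested genes of replication stress and S-phase repair, out of 16, had 0 called, 2 higher and 0 lower unadjusted, and a median of 0.03. Some of these genes passed the limit on low values through their Tsc1-KO libraries.

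Mitosis genes were the 1 related list with genes that passed. Of 23 tested out of 25, 4 rose and 0 fell at an adjusted p under 0.05 (5 with limma-voom). Of all genes tested, 1.87% rose and 0.234% fell (1.63% and 0.333% with limma-voom). At an unadjusted p under 0.05, 18 of the 23 were higher and 0 lower, where 13.4% of all genes were higher and 5.72% lower. All 23 were above 0 with a median of 0.80, where 59.8% of all genes were above 0. The 4 were Racgap1 and Prc1 of the central spindle, Aurkb of the chromosomal passenger complex and Top2a, which untangles sister chromatids. Bub1b, Cenpe and Cenpf, also among the 23, passed the limit on low values through their Tsc1-KO libraries. Their WT means were 0.450, 0.397 and 0.410 FPKM. Prc1 was at 2.80, 2.17 and 2.87 FPKM in Tsc1-KO libraries, against 1.36, 1.35 and 1.20 FPKM in WT libraries (log2 fold change 0.94, SE 0.147, adjusted p = 0.0306 from limma). With Tsc1-KO library 4, 5 or 6 or WT library 1 left out, 0 of the 23 passed, and with WT library 2 left out 2 passed. The mitosis genes summed to 48.5, 40.3 and 56.9 FPKM in Tsc1-KO libraries and 28.1, 32.0 and 22.1 FPKM in WT libraries, without overlap, whereas the sums of the replication genes overlapped. A difference between the lists was not tested.

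**Figure D4:**
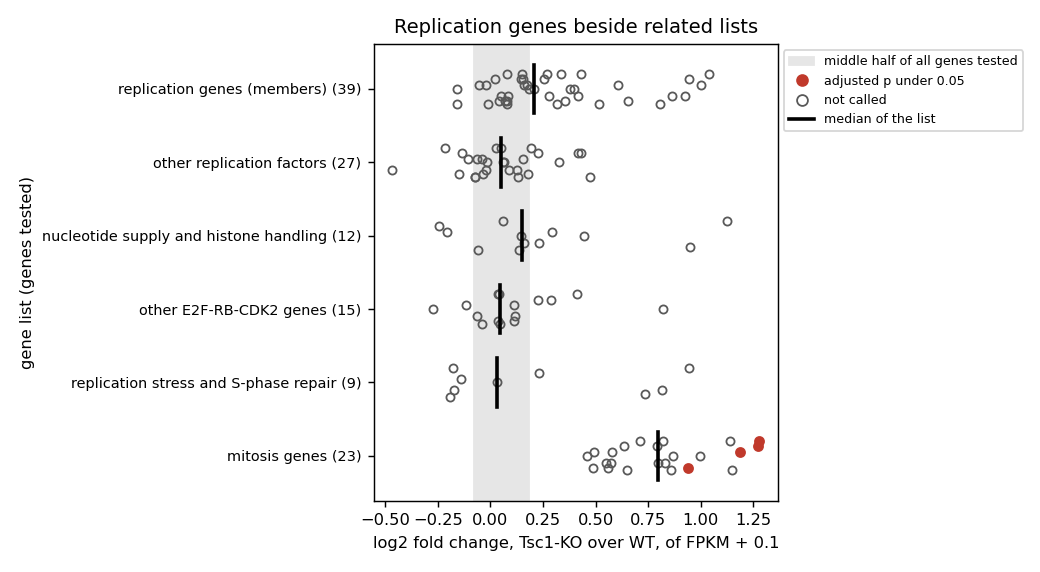
Log2 fold change, Tsc1-KO over WT, of each tested gene in the replication list and in 5 related lists, with the number of genes tested in brackets, a black bar at each median, red points for adjusted p under 0.05 and a grey band from the lower to the upper quartile of all genes tested (-0.08 to 0.18). The median was 0.21 for the 39 replication genes and 0.80 for the 23 mitosis genes, and the 4 red points are all mitosis genes.

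Markers of other cells moved with genotype beside these values. Over all genes tested, 1.87% rose and 0.234% fell at an adjusted p under 0.05, and 59.8% had a log2 fold change above 0. Of 9 fibroblast markers, 3 rose (Col1a1, Col1a2 and Col3a1), and their list summed to 87.4 to 142 FPKM in Tsc1-KO and 58.5 to 71.2 FPKM in WT libraries. Of 10 intercalated cell markers 8 rose, with sums of 351 to 448 FPKM in Tsc1-KO and 186 to 233 FPKM in WT libraries. The other 2, Slc26a4 and Hmx2, differed by -0.20 and -0.66 on the log2 scale. Both had all Tsc1-KO below all WT libraries, and neither passed (limma, adjusted p = 0.132 and 0.274). Of 8 tested injury markers 1 rose (Spp1), with sums of 699 to 932 FPKM in Tsc1-KO and 460 to 521 FPKM in WT libraries. Spp1 alone, at 563 to 748 FPKM in Tsc1-KO and 338 to 387 FPKM in WT libraries, made up most of these sums. The log2 fold change was above 0 for 7 of the 8, and Havcr1 was at -0.32, with overlap. Of 9 tested myeloid markers 0 passed, with sums of 62.3 to 94.7 FPKM in Tsc1-KO and 61.9 to 70.2 FPKM in WT libraries. Of 9 markers of T and B cells 4 were listed and 0 tested, with sums of 0.593 to 1.35 FPKM in Tsc1-KO and 0.812 to 1.08 FPKM in WT libraries. Of 3 tested genes of erythroid precursors, out of 7, 1 rose (Alas2, the first enzyme of heme synthesis, with an adjusted p of 0.0438 from limma and 0.0595 from limma-voom), while the other 2 did not pass: Tfrc differed by -0.33 on the log2 scale (limma, adjusted p = 0.127), with all Tsc1-KO below all WT libraries, and Klf1 by -0.46, with overlap. The median of the 3 was -0.33, and the listed genes had sums of 23.6 to 27.9 FPKM in Tsc1-KO and 26.3 to 29.5 FPKM in WT libraries. Of 9 principal cell markers 3 rose (Scnn1b, Scnn1g and Gata3), and 6 had a log2 fold change above 0. Fxyd4 differed by -0.35 without passing (limma, adjusted p = 0.0732), with all Tsc1-KO below all WT libraries. Aqp3 and Aqp4 differed by -0.16 and -0.19, with overlap. None passed among 7 of endothelium, 8 of proximal tubule, 6 of thick limb and distal convoluted tubule and 5 of podocytes. The proximal tubule list summed to 4201 to 5050 FPKM in Tsc1-KO and 5107 to 5589 FPKM in WT libraries, without overlap. Its median log2 fold change was -0.17, with 1 of 8 above 0. The median was 0.26 for endothelium (7 of 7 above 0) and for podocytes (5 of 5). It was 0.16 for thick limb and distal convoluted tubule (5 of 6). No listed marker of any of these lists was at 0 in every library, and their part in the levels of the replication genes was not tested.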

How the data were processed

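Per the labels, reads were aligned with HISAT2 2.0.4 and HTSeq 0.9.1 did the counting. The genome build is not given in the sources used here. The deposited library columns hold FPKM. The authors' mean normalised counts (a signal, over all libraries and per group) were used with the FPKM to recover reads, and 90069 of 90069 values of 10000 reads or fewer came out whole, at a tolerance of 0.02 reads (100%). The deposited fold change, p-value and adjusted p-value columns hold the authors' own comparison and were not used, nor were their 2 lists of genes that differ.

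Libraries were grouped by their labels, which name separate kidney samples and no more, so p-values measure the spread between these samples. log2(FPKM + 0.1) was fitted in limma 3.58.1 (R 4.3.3) with genotype as the only term and a variance trend, after removal of genes whose mean was under 0.5 FPKM. Fold changes are on this scale, which understates those of low genes. The fit was tested on simulated data. The 13 alternatives are another pseudocount (1 or 0.01 FPKM), no filter or a filter of 1 FPKM, no variance trend, median-of-ratios scaling, limma-voom on recovered reads, and leaving out each library. Each gene called, the genes with the smallest p and the highest FPKM per role, and Pcna have values in every library. This rule takes in 16 genes, and the other genes with such values were chosen after their values had been seen. From related lists, up to 4 called genes, or the gene with the smallest p, are named. Other genes of these lists were named after their values had been seen. For 1 list the gene is not reported here. The genes and lists were chosen with earlier results of these data known. Protein sequences were not used here. Python 3.11.15 (numpy 2.4.6, pandas 2.3.3) made the tables, and matplotlib 3.10.9 drew the figures.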

Additional observations from a re-analysis of the deposited data

How the results depend on the processing

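The median log2 fold change of the replication genes stayed above that of all genes under the 13 alternatives, between 0.16 and 0.28. The number of genes without overlap lay between 12 and 20, with 12 of 35 at a filter of 1 FPKM and 20 of 39 without WT library 2. The share over all genes was 17.3% with all libraries. It was 19.8%, 25.6% and 27.9% without WT library 1, 2 and 3. It was not counted for the filter of 1 FPKM, median-of-ratios scaling, limma-voom or the omission of a Tsc1-KO library. The number called was 1 without the variance trend, and 0 to 3 when each library was left out in turn. Over the same omissions, the number of all genes called was 0 to 1115 (29 without WT library 1, 191 without WT library 2, 1115 without WT library 3, and 104, 24 and 0 without Tsc1-KO libraries 4, 5 and 6), against 279 with all libraries. Of the mitosis genes 0 to 6 were called, and of the other replication factors and of the other E2F, RB and CDK2 genes 0 to 1 each, with the 1 call in each found without WT library 3. The causes were not tested. With all libraries, 1778 genes were higher and 757 lower at an unadjusted p under 0.05, against 1319 and 1197 after median-of-ratios scaling.

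With each library left out in turn, the log2 fold change took both signs for 11 of the 39 replication genes: Orc2, Cdt1, Gins1, Gins2, Prim1, Prim2, Pold2, Rfc4, Rpa1, Rpa2 and Dnmt1. Among those named by the rule, the log2 fold change ranged from -0.046 to 0.0089 for Orc2 (above 0 without WT library 2 and without Tsc1-KO library 5), from -0.083 to 0.098 for Pold2 (above 0 without WT library 2 and without Tsc1-KO library 4) and from -0.124 to 0.119 for Dnmt1 (below 0 without WT library 3 and without Tsc1-KO library 5). Dnmt1 was also at -0.023 with median-of-ratios scaling and at -0.031 with limma-voom. Genes with under 50 reads per library, among them Cdc6, Ccne1, Ccne2, E2f8 and Orc1, are limited by counting. No paired analysis was possible because the groups share no replicate number.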
